A study of Mus musculus with 71 samples.

Results

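The microRNA miR-218 is made from 2 mouse genes that lie inside introns of the axon-guidance genes Slit2 and Slit3. Its 3 mature forms were followed here through brain tissue of mice with and without a nerve injury. The members were taken by name: mmu-miR-218-5p, which both genes yield, mmu-miR-218-1-3p, which comes from the Slit2 intron, and mmu-miR-218-2-3p, which comes from the Slit3 intron (written without mmu, for mouse, below). These are 3 of the 1927 mature miRNA entries listed; 1085 entries were counted at least once. All mice were male. Injured DYT1KI, naive DYT1KI, injured WT and naive WT mice were compared. DYT1KI mice model the inherited movement disorder DYT-TOR1A dystonia by a knock-in, and WT is wild type. Injured mice had their right sciatic nerve crushed for 1 minute at 12 weeks of age, and tissue was labelled as taken 12 weeks after injury. Right cerebellum, left striatum and left cortex gave 6 libraries a group and 71 libraries from 24 animals; injured WT cerebellum had 5. The left cortex lies opposite to the injured nerve and the right cerebellum on its side.

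A miRNA hairpin is cut into a 5p and a 3p arm, and usually one of them is kept by the Argonaute protein while the other is degraded. The kept arm recognises messenger RNAs through its seed, bases 2 to 8. Slit proteins are secreted ligands of Robo receptors that steer growing axons, and miR-218-5p is known in mice as an abundant miRNA of motor neurons that is needed for neuromuscular function; it also occurs in forebrain neurons.

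The mature sequences show which reads can be traced to a gene. They are RefSeq entries on build GRCm38.p6, written 5′ to 3′ with the seed in capitals.
miR-218-5p: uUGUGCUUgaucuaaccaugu
miR-218-1-3p: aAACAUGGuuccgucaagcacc
miR-218-2-3p: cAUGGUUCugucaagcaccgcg
The 5p arm has the same 21 bases in both genes, so its reads cannot be assigned to the Slit2 or the Slit3 intron. The 3p arms start at different places: miR-218-2-3p begins 3 bases further in. Over the 19 bases they share there is 1 substitution, C12U, with the position counted from 1 at the 5′ end of miR-218-1-3p and the base of miR-218-1-3p given first. The shift gives them different seeds. The 5p seed is otherwise present only in miR-7002-3p, and the seed of miR-218-1-3p only in miR-496b, among 1679 mature names searched. Neither of these had a count in any of the 71 libraries.

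The hairpins are shown with both arms in capitals, since the loop and the flanks are where the genes differ most.
Mir218-1: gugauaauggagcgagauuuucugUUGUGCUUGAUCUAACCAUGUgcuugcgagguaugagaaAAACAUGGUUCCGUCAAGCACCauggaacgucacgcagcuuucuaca
Mir218-2: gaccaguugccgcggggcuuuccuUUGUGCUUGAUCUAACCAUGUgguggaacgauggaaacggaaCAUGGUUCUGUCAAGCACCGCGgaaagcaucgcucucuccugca
Mir218-1 lies at chr5:48223942-48224051 on the plus strand of GRCm38, inside Slit2 (chr5:47983138-48307733, plus strand), in intron 14, 15 or 16 depending on the transcript. Mir218-2 lies at chr11:35616816-35616925 on the plus strand, inside Slit3 (chr11:35121224-35708507, plus strand), in intron 14 of a Slit3 transcript with 36 exons. Both run in the direction of their host gene and lie in no exon of the transcripts named.

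Library totals were 8199033 to 12582875 counts in cerebellum, 6161668 to 10219295 in striatum and 5182284 to 10064827 in cortex. In the deposited tables no count of 1 occurred for any miRNA in any library, so a listed 0 may stand for a low count. Levels are given as CPM, counts divided by the TMM-scaled library total in units of 1000000 counts. In bulk tissue, fewer cells of a type and less RNA per cell cannot be told apart.

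The 5p arm carried nearly all miR-218 counts in each tissue. It was counted in all 71 libraries and averaged 384 ± 101 CPM in cerebellum (SD, n = 23), 907 ± 123 CPM in striatum (SD, n = 24) and 856 ± 262 CPM in cortex (SD, n = 24). By mean level it ranked 88 of 921 counted miRNAs in cerebellum, 68 of 954 in striatum and 65 of 958 in cortex. The Slit3-intron arm miR-218-2-3p averaged 1.31 ± 0.974 CPM in cerebellum, 4.82 ± 1.39 CPM in striatum and 2.72 ± 1.25 CPM in cortex. It was counted in every library of striatum and cortex, at 24 to 89 and 10 to 57 counts, and in 17 of 23 cerebellum libraries. The Slit2-intron arm miR-218-1-3p stayed at 9 counts or fewer in every library. On this scale 3 counts corresponded to 0.263 to 0.510 CPM in the cerebellum libraries, 0.253 to 0.418 CPM in the striatum libraries and 0.267 to 0.503 CPM in the cortex libraries.

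**Figure D1:**
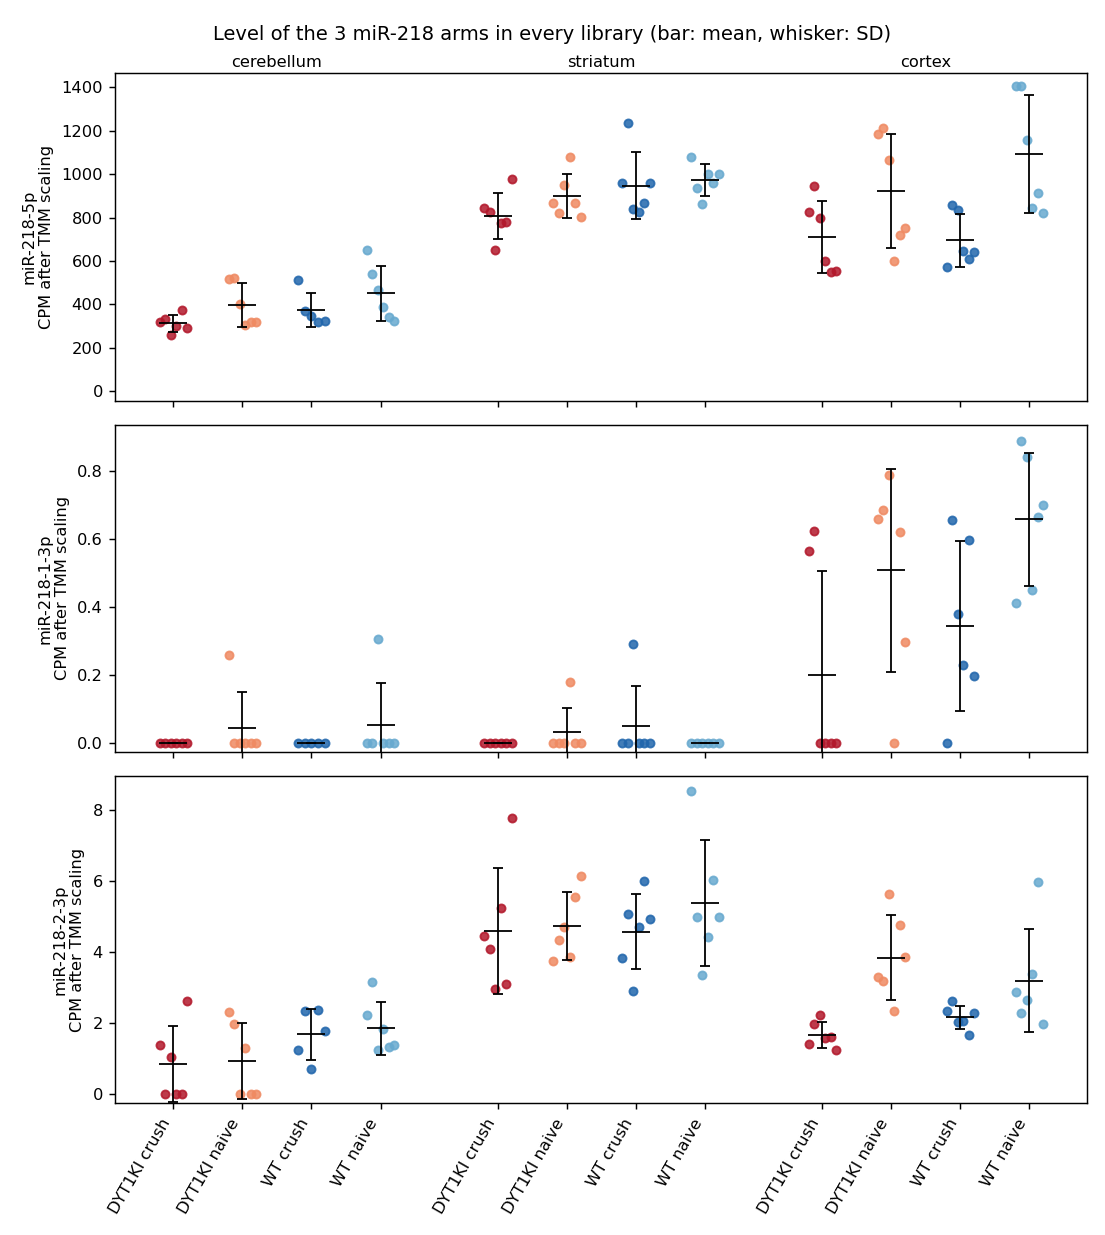
Level of miR-218-5p, miR-218-1-3p and miR-218-2-3p in CPM after TMM scaling (vertical axes), by tissue and group (horizontal axis). Each point is a library, the bar is the group mean and the whisker its SD. The 5p arm lies lowest in cerebellum, and miR-218-1-3p lies above 0 in 18 of 24 cortex libraries against 2 of 24 in striatum.

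The 5p arm was lower in cerebellum than in the other tissues in every genotype and treatment. In injured DYT1KI mice it had 259, 309 and 375 CPM (lowest, median, highest) in cerebellum, against 653, 801 and 979 CPM in striatum and 549, 700 and 944 CPM in cortex. In naive WT mice it had 325, 426 and 650 CPM in cerebellum, against 865, 979 and 1078 CPM in striatum and 820, 1036 and 1408 CPM in cortex. Neither group's cerebellum libraries overlapped with its striatum or cortex libraries. The share of all miRNAs that separate in this way is not given here. The difference of cerebellum from cortex in edgeR's quasi-likelihood test was -1.30 ± 0.16 log2 units (SE, adjusted p = 1.18e-06) in injured DYT1KI, -1.23 ± 0.20 (adjusted p = 2.78e-05) in naive DYT1KI, -1.03 ± 0.16 (adjusted p = 1.98e-05) in injured WT and -1.44 ± 0.18 (adjusted p = 1.02e-06) in naive WT mice. All 4 passed the rule for tissues, an adjusted p under 0.05 and a change of at least 1 log2 unit; 24.8%, 23%, 21.3% and 26.8% of all tested miRNAs were called lower in the same comparisons. The value of injured WT mice lay close to the size limit and came under it, at -0.84 to -0.99, when any of 5 animals was left out (those with cortex biol rep 1, 2, 3, 4 and 6). Against striatum the difference was -1.49 ± 0.16, -1.26 ± 0.20, -1.45 ± 0.16 and -1.22 ± 0.18 log2 units in the same order of groups, and all 4 were called, as were 27.1%, 24.7%, 24.1% and 24% of all miRNAs in the lower direction. Under upper-quartile scaling the values of naive DYT1KI (-0.90) and naive WT mice (-0.88) came under the size limit.

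Between striatum and cortex the 5p arm passed the rule in no group. The difference of striatum from cortex was 0.19 ± 0.16 log2 units in injured DYT1KI, 0.04 ± 0.19 in naive DYT1KI, 0.41 ± 0.15 in injured WT and -0.22 ± 0.18 in naive WT mice. None reached 1 log2 unit, and that of injured WT mice had an adjusted p of 0.0340 in edgeR. Under upper-quartile scaling the first 2 of these values turned negative.

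The Slit3-intron arm was highest in striatum. In injured WT mice it had 2.91, 4.83 and 5.99 CPM in striatum (lowest, median, highest), against 1.67, 2.16 and 2.62 CPM in cortex, without overlap. The share of all miRNAs without overlap in this comparison is not given here. The difference of striatum from cortex was 1.46 ± 0.54 log2 units in injured DYT1KI (edgeR adjusted p = 0.0383) and 1.04 ± 0.25 in injured WT mice (adjusted p = 0.00308), and both were called, against 9.35% and 8.52% of all miRNAs in the higher direction. In naive DYT1KI mice it was 0.36 ± 0.55 (adjusted p = 0.639) and in naive WT mice 0.70 ± 0.30 (adjusted p = 0.0568), and neither was called. The call in injured DYT1KI mice was lost when any of 5 animals was left out (cortex biol rep 1, 2, 3, 4 and 6), with adjusted p of 0.0570 to 0.102; the call in injured WT mice was lost without the animal of cortex biol rep 4 or 5, at 0.95 and 0.87 log2 units. In cerebellum the arm was called lower than in striatum in all 4 genotypes and treatments, by -2.56 ± 0.59 in injured DYT1KI, -2.40 ± 0.62 in naive DYT1KI, -1.57 ± 0.28 in injured WT and -1.63 ± 0.31 in naive WT mice. Of all tested miRNAs 27.1%, 24.7%, 24.1% and 24% were called lower in the same order of groups. In each DYT1KI group 3 of 6 cerebellum libraries listed the arm at 0, and the DYT1KI sizes rest partly on these. Against cortex the arm was called lower in naive DYT1KI mice only (-2.04 ± 0.62, edgeR adjusted p = 0.00836), where 23% of all miRNAs were called lower. The difference was -1.10 ± 0.61 in injured DYT1KI (adjusted p = 0.124), -0.52 ± 0.28 in injured WT (adjusted p = 0.120) and -0.93 ± 0.32 in naive WT mice (adjusted p = 0.0149, under the size limit). Without the animal of cortex biol rep 6 the value of injured DYT1KI mice was -1.84 and called, and without that of biol rep 2 the value of naive WT mice was -1.23 and called.

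The balance of the arms within a library, which needs no scaling and depends little on depth at counts well above 0, also differed between striatum and cortex. The log2 ratio of 5p to miR-218-2-3p counts, with 0.5 added to each, averaged 7.58 ± 0.354 in striatum and 8.33 ± 0.546 in cortex (SD, n = 24 each). It was lower in striatum in 19 of 24 animals, by 0.75 log2 units on average (difference -0.75; paired sign-flip permutation test over animals, two-sided, p = 2e-05, the smallest the 100000 resamples can give; adjusted p = 0.0003 over 15 ratio tests). In cerebellum the ratio averaged 8.96 ± 2.04 (SD, n = 23). However, 6 libraries there had no miR-218-2-3p count, so their ratios rest on the 0.5 added and vary with depth. The difference of cerebellum from striatum was 1.40 (adjusted p = 0.018, permutation test) with these libraries and 0.24 (adjusted p = 0.310) over the libraries with a count. The difference of cerebellum from cortex was 0.62 (adjusted p = 0.412) with them and -0.64 (adjusted p = 0.0453) without, so its direction differed with and without them.

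The Slit2-intron arm was found mainly in cortex. In cortex miR-218-1-3p had 0, 0, 0, 0, 4 and 7 counts in injured DYT1KI, 0, 3, 6, 6, 7 and 8 in naive DYT1KI, 0, 2, 2, 3, 5 and 5 in injured WT and 4, 4, 5, 6, 7 and 9 in naive WT mice. It was counted in 18 of 24 cortex libraries, against 2 of 24 in striatum and 2 of 23 in cerebellum. Summed over libraries it made up 1.96% of the counts of both 3p arms in cerebellum (5 counts beside 250 of miR-218-2-3p; exact 95% interval 0.640 to 4.52%), 0.438% in striatum (5 beside 1136; 0.142 to 1.02%) and 13.8% in cortex (93 beside 580; 11.3 to 16.7%). These intervals cover counting error only. Striatum held the most miR-218-2-3p counts and the smallest share of miR-218-1-3p.

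As raw CPM, miR-218-1-3p averaged 0.0243 in striatum and 0.499 in cortex over 24 animals, and was lower in striatum in 18 of them, higher in 1 and equal in 5. It averaged 0.0179 in cerebellum and 0.521 in cortex over 23 animals, lower in cerebellum in 18 and equal in 5. Each difference had p = 2e-05 in a two-sided paired permutation test, the smallest the resamples can give (adjusted p = 3e-05 over 3 tests), while cerebellum and striatum gave p = 0.873. These 3 tests were chosen after the values had been seen.

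**Figure D2:**
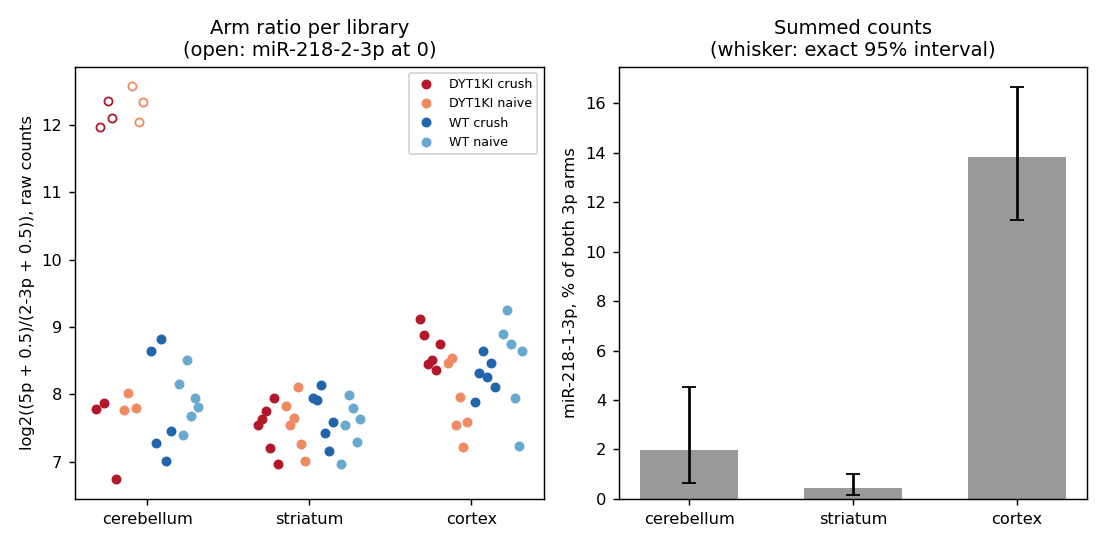
Left, log2 ratio of miR-218-5p to miR-218-2-3p raw counts with 0.5 added to each (vertical axis) in every library by tissue, with open points for the 6 cerebellum libraries without a miR-218-2-3p count. Right, miR-218-1-3p as a percentage of the summed counts of both 3p arms, with exact 95% intervals: 1.96% in cerebellum, 0.438% in striatum and 13.8% in cortex.

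In cortex both testable arms were lower in injured than in naive mice. Averaged over genotypes, miR-218-2-3p fell to 0.534 of its naive level (-0.91 ± 0.18 log2 units, SE; adjusted p = 0.0121 in edgeR's quasi-likelihood test) and miR-218-5p to 0.688 (-0.54 ± 0.14; adjusted p = 0.0148). All 12 injured libraries lay below the naive mean of their genotype for miR-218-2-3p, and 11 of 12 did for miR-218-5p. How many of all tested miRNAs reach such counts is not given here, so the counts cannot be called unusual. Many miRNAs were called in this comparison: 164 of 530 tested were called, 30.9%, with 106 lower (20%) and 58 higher (10.9%), and the median of all was -0.03 log2 units. Leaving out 1 library moved the share called to between 4.64% (without injured DYT1KI biol rep 4) and 40.8%, and 9 of 24 such fits moved it by over 1.5 times. Upper-quartile scaling moved that median by 0.11 log2 units and the split to 66 lower and 101 higher; relative to the median, miR-218-5p stood at -0.51 and miR-218-2-3p at -0.88 under TMM and at -0.51 and -0.87 under upper-quartile scaling.

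The 5p arm had 549, 700 and 944 CPM (lowest, median, highest) in the cortex of injured DYT1KI mice, against 600, 908 and 1216 CPM in naive DYT1KI mice. In WT mice it had 575, 644 and 859 CPM after injury, against 820, 1036 and 1408 CPM in naive mice. The groups overlapped in both genotypes, although in WT mice 4 of 6 injured libraries lay below every naive one. Libraries of biol rep 1 to 3 lay above those of 4 to 6 within 3 groups. They had 1407, 1408 and 1159 against 844, 913 and 820 CPM in naive WT mice. In naive DYT1KI mice they had 1187, 1216 and 1065 against 600, 722 and 752 CPM. In injured DYT1KI mice they had 825, 944 and 798 against 602, 549 and 556 CPM. Injured WT mice had no such split, with biol rep 1 lowest at 575 CPM. Within a genotype the edgeR test gave -0.36 ± 0.19 in DYT1KI (adjusted p = 0.234) and -0.72 ± 0.19 in WT mice (adjusted p = 0.0598). The authors' deposited table gives -0.344 (adjusted p = 0.188) in DYT1KI and -0.620 (adjusted p = 0.0259) in WT mice. The effect of injury did not pass a test for a difference between genotypes (interaction 0.36 ± 0.27, edgeR adjusted p = 0.847).

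The Slit3-intron arm had 1.23, 1.59 and 2.23 CPM in the cortex of injured DYT1KI mice, from 10 to 22 counts, against 2.33, 3.57 and 5.62 CPM in naive DYT1KI mice, from 17 to 57 counts. In WT mice it had 1.67, 2.16 and 2.62 CPM after injury, from 14 to 23 counts, against 1.98, 2.76 and 5.97 CPM in naive mice, from 17 to 45 counts. In DYT1KI mice all 6 injured libraries lay below all 6 naive ones, while in WT mice the groups overlapped. The share of all tested miRNAs that separate in this way is not given here, so the separation cannot be called unusual. The edgeR test gave -1.18 ± 0.26 in DYT1KI (adjusted p = 0.0737) and -0.63 ± 0.26 in WT mice (adjusted p = 0.105), with an interaction of -0.56 ± 0.37 (adjusted p = 0.840). The authors' deposited table gives -0.997 (adjusted p = 0.00815) in DYT1KI and -0.471 (adjusted p = 0.179) in WT mice.

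Within a genotype edgeR called 0% of 530 miRNAs in cortex for injury, with 131 in DYT1KI and 168 in WT mice at an unadjusted p under 0.05; DESeq2 called 31 and 60. Fitted with the biol rep range (1 to 3 or 4 to 6) as a term, edgeR called 27.4% in DYT1KI and 32.5% in WT mice; miR-218-5p then passed in DYT1KI (-0.34, adjusted p = 0.0301) and WT mice (-0.68, adjusted p = 9.91e-05), and miR-218-2-3p in DYT1KI mice (-1.18, adjusted p = 0.0145). DESeq2 also called miR-218-5p in WT mice (-0.67, adjusted p = 0.0210). The ratio of 5p to miR-218-2-3p in cortex was 8.68 ± 0.288 in injured and 7.89 ± 0.533 in naive DYT1KI mice (SD, n = 6 each; exact permutation test, two-sided, p = 0.0195, adjusted p = 0.0974), and 8.28 ± 0.265 in injured and 8.46 ± 0.733 in naive WT mice (exact permutation p = 0.600). The Slit2-intron arm was below the count filter in every tissue; fitted without the filter it gave -1.12 ± 0.71 for injury in cortex (edgeR adjusted p = 0.287).

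**Figure D3:**
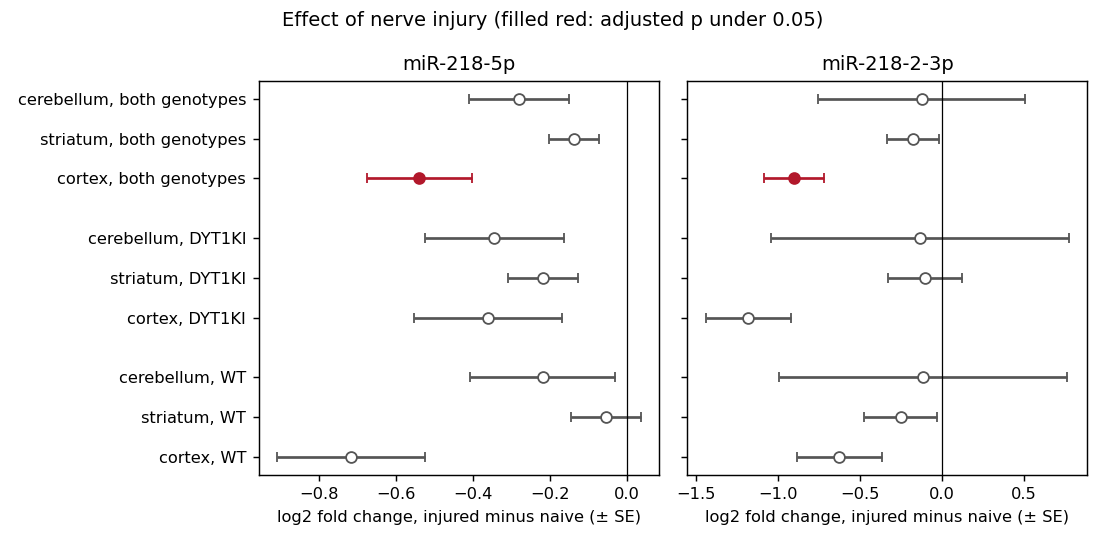
Effect of nerve injury on miR-218-5p and miR-218-2-3p as log2 fold change, injured minus naive, with its SE (horizontal axes), by tissue and for both genotypes together, DYT1KI and WT. Filled red points had an adjusted p under 0.05 in edgeR; these are the 2 values of cortex with both genotypes together, -0.54 and -0.91.

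The cortex calls were lost under some alternatives. The leading pattern of variation among the cerebellum libraries was taken after subtraction of group means, with the miR-218 arms left out. Each cortex and striatum library was scored by how far its own levels followed that pattern, called the composition score here. Group means of cortex and striatum were not subtracted, so the score can hold part of the injury effect. Whether the score measures cell composition was not tested. With it as a term in the cortex fit, miR-218-5p changed by -0.12 (edgeR adjusted p = 0.443) and miR-218-2-3p by -0.74 (adjusted p = 0.145), and 0 miRNAs were called (72 at an unadjusted p under 0.05). Without the 4 cortex libraries that carried unusual amounts of miRNAs hosted by Htr2c, miR-449a-5p or miR-206-3p (injured DYT1KI biol rep 1 and 6, naive DYT1KI biol rep 1 and injured WT biol rep 2), the changes were -0.51 (edgeR adjusted p = 0.0562) and -0.88 (adjusted p = 0.0510), and 0 miRNAs were called (203 at an unadjusted p under 0.05). The libraries were also split by biol rep number: among numbers 1 to 3 the changes were -0.49 for miR-218-5p (adjusted p = 0.00446) and -0.50 for miR-218-2-3p (adjusted p = 0.0794), and among 4 to 6 they were -0.38 (adjusted p = 0.00909) and -1.14 (adjusted p = 0.0154). Both calls were kept when any 1 of the 24 cortex libraries was left out, at -0.59 to -0.41 for miR-218-5p and -0.95 to -0.74 for miR-218-2-3p.

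**Figure D4:**
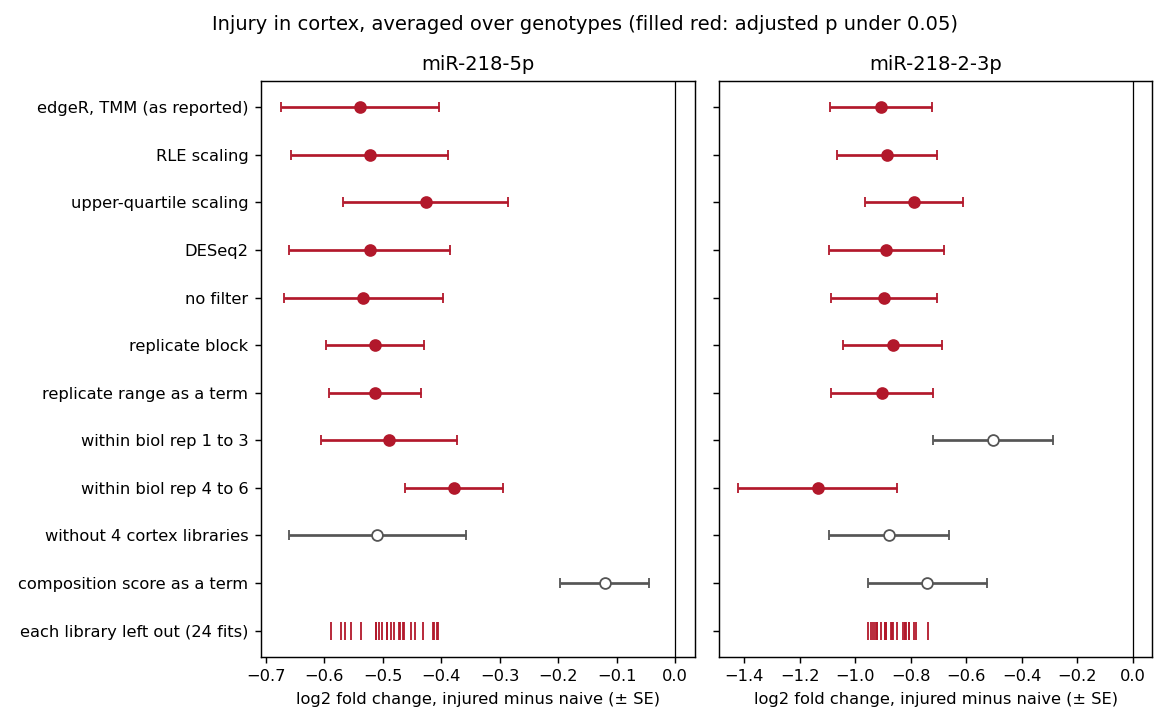
Injury effect in cortex averaged over genotypes, as log2 fold change with SE (horizontal axes), for miR-218-5p and miR-218-2-3p under each processing alternative; the lowest line of ticks gives the 24 fits that leave out a library. Every value is below 0, and the open points, adjusted p at or above 0.05, include the fits with the composition score (-0.12 and -0.74) and without 4 cortex libraries (-0.51 and -0.88).

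Other miRNAs of known cell types moved in the same comparison, and their part in the miR-218 result was not tested. The counts below stand beside 20% lower and 10.9% higher over all 530 tested miRNAs. Of 13 tested neuron-enriched miRNAs, 4 were lower and 1 higher in injured cortex: miR-153-3p (-0.63), miR-125b-5p (-0.56), miR-9-3p (-0.19) and miR-9-5p (-0.16) fell and miR-129-5p (0.41) rose, while miR-124-3p, a miRNA of neurons throughout the brain, stood at 0.06 ± 0.11 log2 units (edgeR adjusted p = 0.697). The median of that list was 0.05, against -0.03 over all 530 miRNAs. Of 8 tested miRNAs related to motor neurons, miR-9-5p, which is also on the neuron-enriched list, was the only one called.

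Of 8 microglial and inflammatory miRNAs, miR-146a-5p (-0.68), miR-150-5p (-0.56), miR-223-3p (-0.49) and miR-146b-5p (-0.42) fell and miR-155-5p (0.48) rose, against 20% lower and 10.9% higher over all miRNAs. Their summed level spanned 805 to 1252 CPM in injured DYT1KI, 797 to 1734 in naive DYT1KI, 921 to 1276 in injured WT and 1087 to 1541 in naive WT cortex. In the oligodendrocyte list miR-219a-5p (-2.43) fell, 1 of 4 tested, and the list summed to 1178 to 2954 CPM in injured DYT1KI, 1701 to 3865 in naive DYT1KI, 1781 to 2345 in injured WT and 1932 to 2988 in naive WT cortex. The red cell miRNA miR-451a (-1.85) fell, 1 of 2 tested blood cell miRNAs. The blood list summed to 4.24 to 30.4 CPM in injured DYT1KI, 8.37 to 45.4 in naive DYT1KI, 7.79 to 48.2 in injured WT and 13.3 to 131 in naive WT cortex.

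Of 5 vessel miRNAs, both arms of miR-145a fell (5p -0.81, 3p -0.42), and of 5 tested choroid plexus and ependyma miRNAs miR-449a-5p (0.56) rose, again against 20% lower and 10.9% higher over all miRNAs. These called members went the other way from their lists. The median was 0.06 for the vessel list and -0.35 for the choroid plexus and ependyma list, against -0.03 over all 530 miRNAs. None of 5 tested miRNAs hosted by Htr2c and none of 2 from the Hox clusters was called in edgeR for injury in cortex. The vessel list summed to 18916 to 35397 CPM in injured DYT1KI, 23060 to 35101 in naive DYT1KI, 24438 to 36761 in injured WT and 21023 to 30737 in naive WT cortex. The choroid plexus list reached 965, 2104, 864 and 447 CPM in its highest library of these groups in the same order, and the Htr2c-hosted list 1047, 1532, 505 and 43.7 CPM.

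In striatum and cerebellum no arm was called for injury. Injured against naive, miR-218-5p changed by -0.14 ± 0.06 log2 units in striatum (edgeR adjusted p = 0.501) and by -0.28 ± 0.13 in cerebellum (adjusted p = 0.574), and lay below the naive mean of its genotype in 10 of 12 and 10 of 11 injured libraries. For how many of all tested miRNAs this holds is not given here, so no fall is read from these counts. miR-218-2-3p changed by -0.18 ± 0.16 in striatum (adjusted p = 0.767) and by -0.13 ± 0.63 in cerebellum (adjusted p = 0.967). Inside some cerebellum groups miR-218-5p also lay higher in biol rep 1 to 3 than in later ones. Naive WT mice had 465 to 650 against 325 to 387 CPM, and naive DYT1KI mice 402 to 524 against 304 to 320 CPM. Injured WT mice had 346 to 511 CPM against 318 and 324 CPM (biol rep 4 and 5). Injured DYT1KI cerebellum and the striatum groups had no such split. edgeR called 0% of 547 miRNAs in striatum and 0% of 555 in cerebellum, with 54 and 41 at an unadjusted p under 0.05, and DESeq2 called 1 and 0. The difference between the injury effects of cortex and striatum was -0.43 ± 0.15 for miR-218-5p (adjusted p = 0.0765) and -0.68 ± 0.31 for miR-218-2-3p (adjusted p = 0.175) in limma, in which 1.75% of 629 miRNAs were called. Between cortex and cerebellum it was -0.18 ± 0.16 and -0.59 ± 0.53 (adjusted p = 0.573 and 0.580; 0% called). Neither arm passed either of these tests for a difference between tissues.

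No arm passed the edgeR test for genotype in any tissue. Averaged over treatments, the DYT1KI minus WT difference of miR-218-5p was -0.21 ± 0.13 in cerebellum (adjusted p = 0.290), -0.14 ± 0.06 in striatum (adjusted p = 0.491) and -0.09 ± 0.14 in cortex (adjusted p = 0.990). For miR-218-2-3p it was -0.95 ± 0.63 in cerebellum (adjusted p = 0.323), -0.06 ± 0.16 in striatum (adjusted p = 0.905) and -0.03 ± 0.18 in cortex (adjusted p = 0.990). In the same comparison 5.05% of 555 miRNAs were called in cerebellum (1.44% lower, 3.6% higher) and 0% in striatum and cortex, where 53 and 14 had an unadjusted p under 0.05 and DESeq2 called 0 and 0. The cerebellum share ran from 0% to 12.7% when 1 library was left out, and 14 of 23 such fits moved it by over 1.5 times. In cerebellum miR-129-5p (0.49) was higher and miR-142a-5p (-0.44) and miR-144-3p (-1.58) lower in DYT1KI mice among the listed miRNAs.

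Cerebellum libraries without any miR-218-2-3p count were all from DYT1KI mice. The arm had 0, 0, 0, 8, 12 and 16 counts in injured DYT1KI and 0, 0, 0, 9, 17 and 18 in naive DYT1KI mice, against 6, 14, 15, 16 and 17 in injured WT and 10, 11, 12, 15, 21 and 33 in naive WT mice. It was thus at 0 in 6 of 12 DYT1KI and 0 of 11 WT libraries (Fisher's exact test, two-sided, p = 0.0137, a test chosen after the values had been seen). Totals of the 6 libraries at 0 were 9889459 to 11584317 counts, against 8199033 to 11966024 in the other DYT1KI libraries, and their 5p counts were 2013 to 3054, against 1765 to 4537. No count from 1 to 7 occurred in the DYT1KI libraries. Of 494 cerebellum miRNAs with a mean count over 10, 14 were at 0 in more than 3 libraries, and miR-218-2-3p is 1 of these 14. The genotype effect on miR-218-2-3p in limma differed between cortex and cerebellum by 2.26 ± 0.53 log2 units (adjusted p = 0.0240; 0.318% of 629 miRNAs called) and between striatum and cerebellum by 2.18 ± 0.51 (adjusted p = 0.0414; 0.159% called). The 6 counts of 0 entered this fit with 0.5 added, and such a fitted size is no bound. In edgeR, which fits the counts themselves, the genotype effect was smaller in cerebellum (-0.95 ± 0.63), beside -0.03 ± 0.18 in cortex and -0.06 ± 0.16 in striatum. None of these was called, and the difference between tissues was not tested in edgeR.

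Ordered by mean level, the 5p arm ran from naive WT cortex at 1092 ± 273 CPM through naive WT striatum at 974 ± 71.8 and injured WT striatum at 948 ± 153 CPM down to injured DYT1KI cerebellum at 312 ± 39.4 CPM (SD, n = 6 each). The ranges of neighbouring groups overlapped at each of the 11 steps of this order. Injured DYT1KI cortex at 712 ± 165 CPM and injured WT cortex at 695 ± 121 CPM stood between the striatum groups and the cerebellum groups. miR-218-2-3p ran from naive WT striatum at 5.38 ± 1.77 CPM to injured DYT1KI cerebellum at 0.841 ± 1.06 CPM, again with overlap at each step.

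The miRNAs whose log2 CPM followed miR-218-5p most closely over the 71 libraries were miR-409-5p (Pearson r = 0.939), miR-153-3p (0.939), miR-346-5p (0.919), miR-411-3p (0.915) and miR-22-3p (0.915), out of 475 compared. All of these values come from the same libraries and include the differences between tissues. They also include the split of miR-218-5p by biol rep number inside some cortex and cerebellum groups. Over the 24 cortex libraries after subtraction of group means, the closest were miR-384-3p (r = 0.960), miR-411-3p (0.956), miR-376b-5p (0.955), miR-212-3p (0.947) and miR-190a-5p (0.947). Subtracting group means leaves in place the split of miR-218-5p by biol rep number that was seen inside some cortex groups. How far that split accounts for these cortex correlations was not tested. For miR-218-2-3p the closest over 71 libraries were miR-409-5p (0.775), miR-299a-5p with miR-299b-5p as 1 entry (0.773), miR-532-3p (0.755), miR-485-3p (0.744) and miR-153-5p (0.743), and in cortex after subtraction of group means miR-99a-5p (0.578), miR-666-3p (0.569), miR-544-5p (0.545), miR-140-3p (0.540) and miR-133a-3p with miR-133b-3p as 1 entry (0.518). The 5p arm and miR-218-2-3p themselves had r = 0.129 there, with miR-218-2-3p at 10 to 57 counts.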

How the data were processed

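Per the labels' protocols, cerebellum RNA came from the miRNeasy mini kit, striatum and cortex RNA from its micro version, and all libraries from a QIAseq miRNA kit, so kit and tissue cannot be told apart there. The deposited tables hold raw counts per mature miRNA, counts divided by size factors (a signal), and the authors' own DESeq2 comparisons: log2 fold changes with standard errors, a test statistic (a score) and p-values with adjusted p-values, per the file headers. No source used here says whether the deposited log2 fold changes were shrunken. R 4.1.0 and featureCounts 1.6.4 are named in the submitters' processing notes with no role; aligner, build and annotation: not given in the sources used here. Raw counts were the same in the 4 tables of each tissue, and 0 pairs of libraries were identical.

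The counts were tested with edgeR 4.0.16 in R 4.3.3 (TMM, filterByExpr with minimum count 10 and minimum total 15, robust quasi-likelihood, Benjamini-Hochberg adjustment over all miRNAs tested, threshold 0.05), in 1 fit of 4 groups per tissue (530 miRNAs in cortex, 547 in striatum, 555 in cerebellum) and in 1 fit of 3 tissues per genotype and treatment. The fits of 3 tissues had no animal term, so they treated libraries of the same animal as independent. Differences of effects between tissues used limma 3.58.1 (voom, correlation within animal 0.095). On counts simulated for the cortex injury comparison over 530 miRNAs, with 200 changed by 1 log2 unit, 99.5% were recovered and 2.93% of calls were false. The simulated counts were independent, with the same dispersion for every miRNA and no pattern shared between libraries. These rates therefore check the code and are not the error rates of the real comparison or of smaller changes. Alternatives included DESeq2 1.42.0. Nothing states separate cultures or litters beyond the animal; the last number of each title was read as the animal and pairs the tissues. Within a tissue, biol rep numbers mark different animals in each group and were not used as a block. In injured WT cerebellum, biol rep 1 to 5 are the animals of cortex biol rep 2 to 6. The animal of cortex biol rep 4 therefore fell in the range 1 to 3 in cerebellum. The members, lists, composition score, the 4 cortex libraries set aside and the split by biol rep number were chosen with earlier results of these data known. Named miRNAs are the members, list members past the threshold in a named comparison, miR-124-3p and miR-9-5p, and the 5 most like each arm. 4 listed names have no entry of their own in the tables.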

Additional observations from a re-analysis of the deposited data

Results flagged for a closer look

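In 32 groups of 5 or 6 libraries whose values were not all equal, a library far from the others was looked for, and 7 were found. Chance gives about 1 in 20 groups, but this rate does not hold where only 1 library of a group was counted. Such a library is always flagged, so the 7 cannot be set against that rate. For miR-218-1-3p these were the only counted libraries of their groups: 0.257 CPM in naive DYT1KI cerebellum biol rep 1 (2 counts), 0.306 CPM in naive WT cerebellum biol rep 3 (3 counts), 0.179 CPM in naive DYT1KI striatum biol rep 4 (2 counts) and 0.291 CPM in injured WT striatum biol rep 3 (3 counts). The others were miR-218-2-3p in naive WT cortex biol rep 5 at 5.97 CPM, miR-218-5p in injured WT cerebellum biol rep 1 at 511 CPM and miR-218-5p in injured WT striatum biol rep 2 at 1237 CPM.

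The effect of genotype on miR-218-2-3p differed between tissues in limma, by 2.26 log2 units for cortex minus cerebellum (adjusted p = 0.0240) and 2.18 for striatum minus cerebellum (adjusted p = 0.0414); 6 of 12 DYT1KI cerebellum libraries listed the arm at 0. The edgeR genotype effect in cerebellum was -0.95 ± 0.63 log2 units and was not called.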

How the results depend on the processing

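Over 65 printed results and 382 alternatives other than leaving out a library, 319 kept the direction and the side of the threshold, 16 lost a call, 12 gained one, 10 changed direction and 25 moved the number of called miRNAs by over 1.5 times; causes were not tested. Calls are given as a percentage of the miRNAs tested in that fit. The other comparisons of the arms, whose values are not printed, were rerun too: 17 of 252 such alternatives and 44 of 684 leave-one-out fits changed direction, none of them for a result with an adjusted p under 0.05, and 9 of 432 counts of calls moved by over 1.5 times. For injury in cortex averaged over genotypes, the composition score gave 0% called, -0.12 for miR-218-5p and -0.74 for miR-218-2-3p, leaving out the 4 cortex libraries gave 0%, -0.51 and -0.88, and biol rep 1 to 3 alone gave -0.50 for miR-218-2-3p. Calls ranged from 4.64% to 40.8% over the 24 leave-one-out fits; the libraries that moved the count by over 1.5 times were injured DYT1KI biol rep 4, 5 and 6, naive DYT1KI 2 and 3, injured WT 1, 4 and 6 and naive WT 2. For injury in WT cortex, miR-218-5p passed with DESeq2 (-0.67; 11.3% of all called), with only the 2 groups (-0.68; 27.9%), with biol rep range as a term (-0.68; 32.5%), within biol rep 1 to 3 (-0.72; 35.1%), within 4 to 6 (-0.51; 5.18%) and without the 4 libraries (-0.77; 5.07%), and leave-one-out fits called 0% to 0.187%. For injury in DYT1KI cortex the range term gave -0.34 for miR-218-5p and -1.18 for miR-218-2-3p, both passing, with 27.4% called. RLE scaling gave -1.20 for miR-218-2-3p (passing; 0.377% called), DESeq2 called 5.85% and gave no adjusted p for miR-218-2-3p, biol rep 1 to 3 called 9.83% and 4 to 6 called 4.99%. Leave-one-out fits gave -1.31 to -1.03 for miR-218-2-3p, which passed without naive WT biol rep 5, naive DYT1KI 4 or injured DYT1KI 3, and called 0% to 18.4%. Same-numbered libraries of different groups are different animals; 31 of 36 pairs correlated over 0.1 in cortex, 5 of 36 in striatum and 20 of 33 in cerebellum, and a library correlated best with its own number in 21 of 72, 8 of 72 and 23 of 66 cases. With the biol rep number as a replicate block, miR-218-5p passed in WT (-0.68; 30.9% called) and DYT1KI cortex (-0.34; 22.5%), miR-218-2-3p passed in DYT1KI cortex (-1.16), striatum had 0.183% called for injury, miR-218-2-3p in cerebellum turned to 0.026 for injury, and cerebellum had 16% called for genotype. Among uncalled effects, miR-218-2-3p in cortex turned to 0.15 for genotype within biol rep 1 to 3 and to 0.084 without the 4 libraries (leave-one-out -0.12 to 0.088). In striatum it turned to 0.013 for injury with the composition score and to 0.063 for genotype within biol rep 4 to 6 (leave-one-out -0.15 to 0.027), where 0.364% were called; DESeq2 called 0.183% for injury, and leave-one-out fits 0% to 0.181%. In cerebellum it turned to 0.74 for injury within biol rep 4 to 6 (leave-one-out -0.50 to 0.13), where injured WT mice had only biol rep 4 and 5. Biol rep 1 to 3 of cerebellum called 5.75%. Calls for genotype in cerebellum, 5.05%, became 12.1% with DESeq2, 13.3% with the range term and 0% without the filter or within either range (leave-one-out 0% to 12.7%; moved by over 1.5 times without injured DYT1KI biol rep 1, 2, 5 or 6, naive DYT1KI 2, 4 or 5, injured WT 1, 2, 3 or 5, or naive WT 1, 2 or 4). Between tissues, upper-quartile scaling turned miR-218-5p, striatum minus cortex, to -0.15 in injured and -0.18 in naive DYT1KI mice, and no filter turned the naive value to -0.0075 (leave-one-out -0.12 to 0.13). It took miR-218-5p, cerebellum minus striatum, under the size limit in naive DYT1KI (-0.90) and naive WT mice (-0.88). In injured WT mice miR-218-5p, cerebellum minus cortex, came under it with RLE (-0.88), upper-quartile (-0.86), DESeq2 (-0.88) and no filter (-0.91; leave-one-out -1.02 to -0.84). miR-218-2-3p, striatum minus cortex, lost its call in injured DYT1KI mice with RLE (1.33), upper-quartile (1.11) and no filter (1.38; leave-one-out 1.18 to 1.66), and in injured WT mice with upper-quartile scaling (0.84; leave-one-out 0.87 to 1.13). Leave-one-out values of miR-218-2-3p, cerebellum minus cortex, were -1.84 to -0.75 in injured DYT1KI and -1.23 to -0.49 in naive WT mice. Without pseudocount, arm ratios in cerebellum gave -0.64 against cortex and 0.24 against striatum. Tests added after seeing the data, of miR-218-1-3p between tissues and of cerebellar zeros, were rerun without each animal or library: cerebellum minus striatum ran from -0.0187 to 0.00819 raw CPM, and the Fisher's exact p from 0.0124 to 0.0351.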
